A study of Mus musculus with 855 samples.

Results

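At postnatal day 1 (P1), 46 starburst amacrine cells held *Fezf1* without *Rnd3* and 70 held *Rnd3* without *Fezf1*, and these groups differed most in *Tenm3*, *Igsf21* and *Gpr26*, which were abundant in the *Rnd3* cells and at or near 0 in the *Fezf1* cells. The cells were selected on these markers: a *Fezf1* cell had at least 1 sequenced fragment of *Fezf1* and less than 1 of *Rnd3*, to within 0.005 of a fragment, and an *Rnd3* cell had the reverse. They were 72.96% of the P1 cells, of which set a holds 78 and set b 81, and 13.6% of all cells of the series. A further 14 P1 cells held both markers and 29 held neither. Every cell came from a mouse of genotype Chat Cre/+; ROSA-LSL-TD-Tomato on a C57BL/6 label, in which Cre made in cholinergic cells switches on the red reporter by which single cells were sorted, so cells that had not yet switched on Cre are not represented. RNA was read by Smart-seq2, a full-length single-cell method. Retinas of several mice of an age were pooled and the labels name no mouse. The P1 cells are therefore 1 pool, the cells are not replicates, and no test between the groups is possible. The names of the cells place 24 *Fezf1* and 30 *Rnd3* cells in a set a and 22 and 40 in a set b, and the P1 ratios are given for both sets. What the sets are is not stated in the labels.

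The values that chose the cells are a description. Among the *Fezf1* cells *Fezf1* had a lowest value of 1 fragment, a median of 63 fragments and 3 cells under 5 fragments. Among the *Rnd3* cells *Rnd3* had a lowest value of 1 fragment, a next lowest of 11 and a highest of 1730. No P1 cell lay between 0 and the limit for either gene. In FPM, fragments scaled to 1000000 of the cell, the medians were 232.7 for *Fezf1* and 1633 for *Rnd3*.

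Starburst amacrine cells are the cholinergic, GABA-releasing interneurons of the retina and are needed for direction selectivity. ON cells have displaced cell bodies in the ganglion cell layer, OFF cells lie in the inner nuclear layer, and each type sends its dendrites to its own stratum of the inner plexiform layer. In the study, *Fezf1*, a zinc-finger transcriptional repressor, marks ON cells, and *Rnd3*, an atypical small GTPase that acts on the actin cytoskeleton, marks OFF cells. The comparison asks which other genes separate these types at P1. By that age, according to the study and earlier work it cites, their dendrites have already settled into separate strata.

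The chosen cells had the profile of starburst amacrine cells. *Isl1*, a LIM-homeodomain factor of starburst amacrine cells, was present in 46 of 46 *Fezf1* and 70 of 70 *Rnd3* cells, and *Slc18a3*, the vesicular acetylcholine transporter, in 46 and 69. *Slc5a7*, the choline transporter, was listed at 0 in every P1 cell. Depth was alike: cells held a median of 290519 fragments in the *Fezf1* and 276308 in the *Rnd3* group (range over both 87805 to 415884), with a median of 4426 genes in each. Set b cells held more genes than set a cells, with medians of 4837 against 4155 for *Fezf1* cells and 4625 against 4072 for *Rnd3* cells. Of the 46 and 70 cells, 7 and 6 carry a title that calls them filtered out, and 39 and 60 held more than 3900 genes. Among markers of other cells, all 4 for microglia were at 0. At least 1 of 3 endothelial markers was in 35 *Fezf1* and 54 *Rnd3* cells (medians of the sum 157.3 and 194.9 FPM), with the other 2 in no cell of either group. At least 1 of 3 horizontal cell markers was in 24 and 47 cells (up to 2148 and 1260 FPM), again with the other 2 in none. Progenitor markers were in 28 and 32 cells, ganglion cell markers in 8 and 12, cone markers in 3 and 1 and bipolar markers in 2 and 2. One *Rnd3* cell of set b held 6687 genes and markers of several other retinal cell types, among them 3 of 5 for cones and 2 of 6 for bipolar cells. The list on which it stood highest is not reported here. Its summed cone markers were at 935 FPM, where the next highest cell had 127.5 FPM. Without it, 2.31% and 2.45% of measured genes met the rule given next, in place of 2.26% and 2.47%. Cells with *Xist* and no Y-linked gene were 13 of the *Fezf1* and 27 of the *Rnd3* cells, and cells with the reverse were 27 and 35.

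Expression was taken as FPM, the summed fragments of a gene over the cells of a group and set, scaled to 1000000 fragments of that group and set. A gene was counted when it differed by at least 2-fold, with 1 FPM added to each level, in the same direction in both sets, and when more cells of the higher group held it in both sets. Of 9709 genes measured, 2.26% were higher in *Fezf1* cells and 2.47% in *Rnd3* cells. These counts are not a number of differing genes, because 4.06% of genes passed the same limits in opposite directions in the sets, against 4.73% in the same direction. Across all measured genes the ratios of sets a and b correlated at r = 0.06, a description over genes of 1 pool. At 8-fold 23 genes passed in the same direction and 18 in opposite directions. *Tenm3*, *Igsf21* and *Gpr26* had the largest ratios in the weaker set. *Vwc2l*, named after its values were seen, was the next gene, at 0 in all *Fezf1* cells and at 45.7 and 39.1 FPM in *Rnd3* cells, of which 11 held it. Of the counted genes, 81 (0.834% of those measured) were present in at least 25% of *Fezf1* cells in both sets, and 67 (0.69%) in at least 25% of *Rnd3* cells. The 15 of each with the largest ratio in the weaker set are named below.

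**Figure D1:**
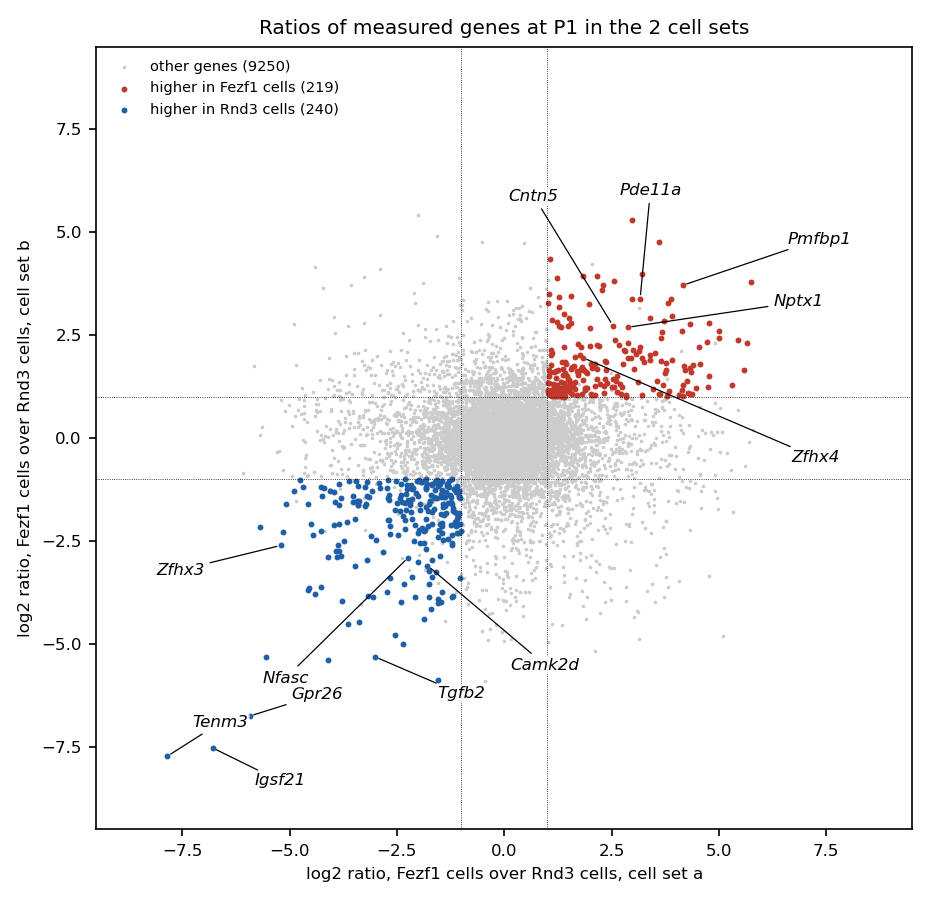
Log2 ratio of the *Fezf1* cells over the *Rnd3* cells for 9709 genes at P1, in cell set a (x axis) and cell set b (y axis). Red points are the 2.26% of genes counted as higher in *Fezf1* cells, blue points the 2.47% counted as higher in *Rnd3* cells, and dotted lines mark 2-fold. Most points form a round cloud, and *Tenm3*, *Igsf21* and *Gpr26* lie apart at the lower left.

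*Tenm3*, a teneurin, is a large transmembrane adhesion protein known for matching synaptic partners, in the retina as elsewhere. It was present in 24 of 30 and 33 of 40 *Rnd3* cells and in 0 of 24 and 2 of 22 *Fezf1* cells of sets a and b. Over single *Rnd3* cells its level ran from 0 through a median of 207.5 to 851.4 FPM, while the highest of the 46 *Fezf1* cells was at 4.26 FPM. Summed over cells, *Rnd3* cells held 230.2 FPM in set a (95% exact Poisson interval 219.8 to 240.8) and 279.3 FPM in set b (269.5 to 289.3). The *Fezf1* cells of set a held none, so *Tenm3* was at least 531.9-fold higher in *Rnd3* cells there, taking 3 fragments over the group as the floor. In set b the *Fezf1* cells held 2 fragments, 1 in each of 2 cells, and the ratio was 879 (243.1 to 7262). All such intervals cover counting error only, since reads copied by PCR are not independent molecules.

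*Igsf21*, an immunoglobulin-superfamily adhesion protein of synapses, was listed at 0 in all 46 *Fezf1* cells, which allows a share of cells with a fragment of up to 6.52% by a limit of 3 cells. It was present in 38 of 70 *Rnd3* cells (54.3%, exact binomial interval 41.9 to 66.3), at 109.7 and 183.8 FPM by set. The ratio was at least 253.6-fold in set a and at least 385.6-fold in set b. *Gpr26*, an orphan G-protein-coupled receptor, was likewise at 0 in all 46 *Fezf1* cells. It was present in 35 of 70 *Rnd3* cells (50.0%, 37.8 to 62.2) at 59.9 and 106.96 FPM, at least 138.4-fold and at least 224.4-fold higher. Of the 70 *Rnd3* cells, 61 held at least 1 of *Tenm3*, *Igsf21* and *Gpr26* and 20 held all 3. Of the 46 *Fezf1* cells, 2 held any of them. The near absence of these genes was thus a feature of the whole *Fezf1* group, whereas their presence varied from cell to cell among *Rnd3* cells. The 9 *Rnd3* cells with none of the 3 genes all held *Cntn5*, described below as higher in *Fezf1* cells. Their *Rnd3* was low, from 3.52 to 460.8 FPM, all under the group's median given above. What sets these 9 cells apart was not tested.

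*Tenm3* lies on the minus strand at chr8:48227682-48843951 of GRCm38, *Igsf21* on the minus strand at chr4:140026846-140246784 and *Gpr26* on the plus strand at chr7:131966460-131994405. The bases from 250 to 51 before the RefSeq start (GRCm38.p6) are shown for *Tenm3* and *Igsf21*, as the pair of adhesion genes with the largest ratios, and for *Cntn5*, the adhesion gene on the *Fezf1* side. Capitals mark the E-box CANNTG, the motif of bHLH factors, which reads the same on both strands. *Tcf4*, a bHLH factor, is among the genes named below.
Tenm3: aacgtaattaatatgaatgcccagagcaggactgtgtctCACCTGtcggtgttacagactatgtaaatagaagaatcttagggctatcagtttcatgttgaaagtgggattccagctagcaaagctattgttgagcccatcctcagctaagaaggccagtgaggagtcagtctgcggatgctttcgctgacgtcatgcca
Igsf21: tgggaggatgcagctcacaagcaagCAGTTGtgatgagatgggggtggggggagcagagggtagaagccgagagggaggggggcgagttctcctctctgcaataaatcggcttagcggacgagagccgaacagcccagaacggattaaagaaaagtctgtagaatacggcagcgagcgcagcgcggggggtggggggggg
Cntn5: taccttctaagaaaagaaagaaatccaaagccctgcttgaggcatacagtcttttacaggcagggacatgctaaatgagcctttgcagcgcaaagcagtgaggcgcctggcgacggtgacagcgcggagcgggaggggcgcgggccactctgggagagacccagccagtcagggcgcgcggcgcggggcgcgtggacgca
The windows lie at chr8:48674741-48674940, chr4:140246862-140247061 and chr9:10904826-10905025, all on the minus strand, and the *Tenm3* window lies inside the longest annotated form of the gene. *Tenm3* and *Igsf21* held 1 E-box each and *Cntn5* held none. Of the 32851 RefSeq windows of this length, 59.05% held at least 1. The *Cntn5* window lies inside the antisense gene *RP23-24C14.1* described below.

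The other genes named on the *Rnd3* side were lower or less even. *Nfasc*, neurofascin, an adhesion protein of the axon initial segment, was present in 17 of 30 and 29 of 40 *Rnd3* cells and in 3 of 24 and 2 of 22 *Fezf1* cells, with log2 ratios of -2.24 and -2.90. *Zfhx3*, a zinc-finger homeobox transcription factor, was present in 58 of 70 *Rnd3* and 14 of 46 *Fezf1* cells. Its log2 ratio was -5.20 in set a and -2.61 in set b, since 12 of its 14 *Fezf1* cells were of set b. *Camk2d*, a subunit of the calcium- and calmodulin-dependent kinase II, was found in 62 of 70 and 17 of 46 cells, at 202.8 and 279.4 FPM in *Rnd3* cells against 57.98 and 31.8 FPM in *Fezf1* cells. *Nell2*, a secreted ligand of Robo receptors, had log2 ratios of -4.45 and -2.35, and *Tgfb2*, a TGF-beta ligand, -3.01 and -5.31. For *Tgfb2*, 1 cell gave 97.4% of the fragments of the *Fezf1* group.

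*D17Wsu92e*, *Erich1*, *Insr* (the insulin receptor), *Smc2* (a condensin subunit), *Mapkapk5* (a kinase), *Fxr2* (a relative of FMRP) and *Tti2* complete the 15, with log2 ratios between -2.97 and -1.67 in single sets. The most widely present by set was *Erich1*, in 18 of 40 *Rnd3* cells of set b, and 1 cell gave 48.1% of its fragments in the *Rnd3* group.

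None of the 15 genes named on the *Fezf1* side was at 0 in all *Rnd3* cells. That group includes the 9 cells, low in *Rnd3*, that held none of *Tenm3*, *Igsf21* and *Gpr26*. *Gabrb2*, a GABA-A receptor subunit outside the 15, was at 0 in all 70 but was held by 6 of 46 *Fezf1* cells, at 11.2 and 26.2 FPM, at least 30.5-fold and at least 96.8-fold higher. *Cntn5*, contactin 5, a GPI-anchored adhesion protein of the immunoglobulin superfamily, was the most widely present of the 15, in 22 of 24 and 21 of 22 *Fezf1* cells against 7 of 30 and 13 of 40 *Rnd3* cells. Single *Fezf1* cells ran from 0 through a median of 149.6 to 1745 FPM, and *Rnd3* cells from 0 through a median of 0 to 269.2 FPM. The groups overlapped, with summed levels of 221.7 and 195.4 FPM against 37.5 and 28.6 FPM and log2 ratios of 2.53 and 2.73. All 9 *Rnd3* cells without *Tenm3*, *Igsf21* or *Gpr26* were among the 20 *Rnd3* cells that held *Cntn5*. *RP23-24C14.1*, an antisense RNA on the plus strand at chr9:10904345-10907818, overlaps the start of *Cntn5* at chr9:9660891-10904775. It followed *Cntn5*, with log2 ratios of 3.16 and 2.22. The library type does not keep strand, so reads from the overlap cannot be told apart.

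*Pmfbp1*, known from the sperm head-to-tail junction, had the largest ratio in the weaker set, 4.16 and 3.71 on the log2 scale. It was present in 16 of 24 and 11 of 22 *Fezf1* cells and in 1 of 30 and 5 of 40 *Rnd3* cells, at 115.8 and 80.7 FPM against 5.52 and 5.24 FPM. *Nptx1*, a secreted pentraxin that gathers AMPA receptors at synapses, was present in 26 of 46 *Fezf1* and 10 of 70 *Rnd3* cells, at 163.6 and 96.4 FPM against 21.4 and 14.1 FPM. *Pde11a*, a cyclic nucleotide phosphodiesterase, was present in 20 of 46 and 2 of 70 cells. *Zfhx4*, a paralogue of *Zfhx3*, lay on the opposite side from it: 36 of 46 *Fezf1* cells and 22 of 70 *Rnd3* cells held *Zfhx4*, with log2 ratios of 1.84 and 1.95.

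*Gfra3*, the co-receptor of artemin, had log2 ratios of 2.90 and 1.94, and *Dkk3*, a secreted dickkopf protein, 3.01 and 2.13. *Tcf4*, the bHLH factor, had 3.15 and 2.12, with 22 of 46 *Fezf1* cells and 20 of 70 *Rnd3* cells holding it. *Has2*, a hyaluronan synthase, had 1.99 and 2.24, and *Lrp8*, a reelin receptor, 3.90 and 1.90. *AI593442*, *Prr5* (a subunit of the mTORC2 complex), *Tbc1d10b* and *Tspan17* (a tetraspanin) complete the 15 on this side, with ratios between 2.11 and 3.40 in single sets.

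**Figure D2:**
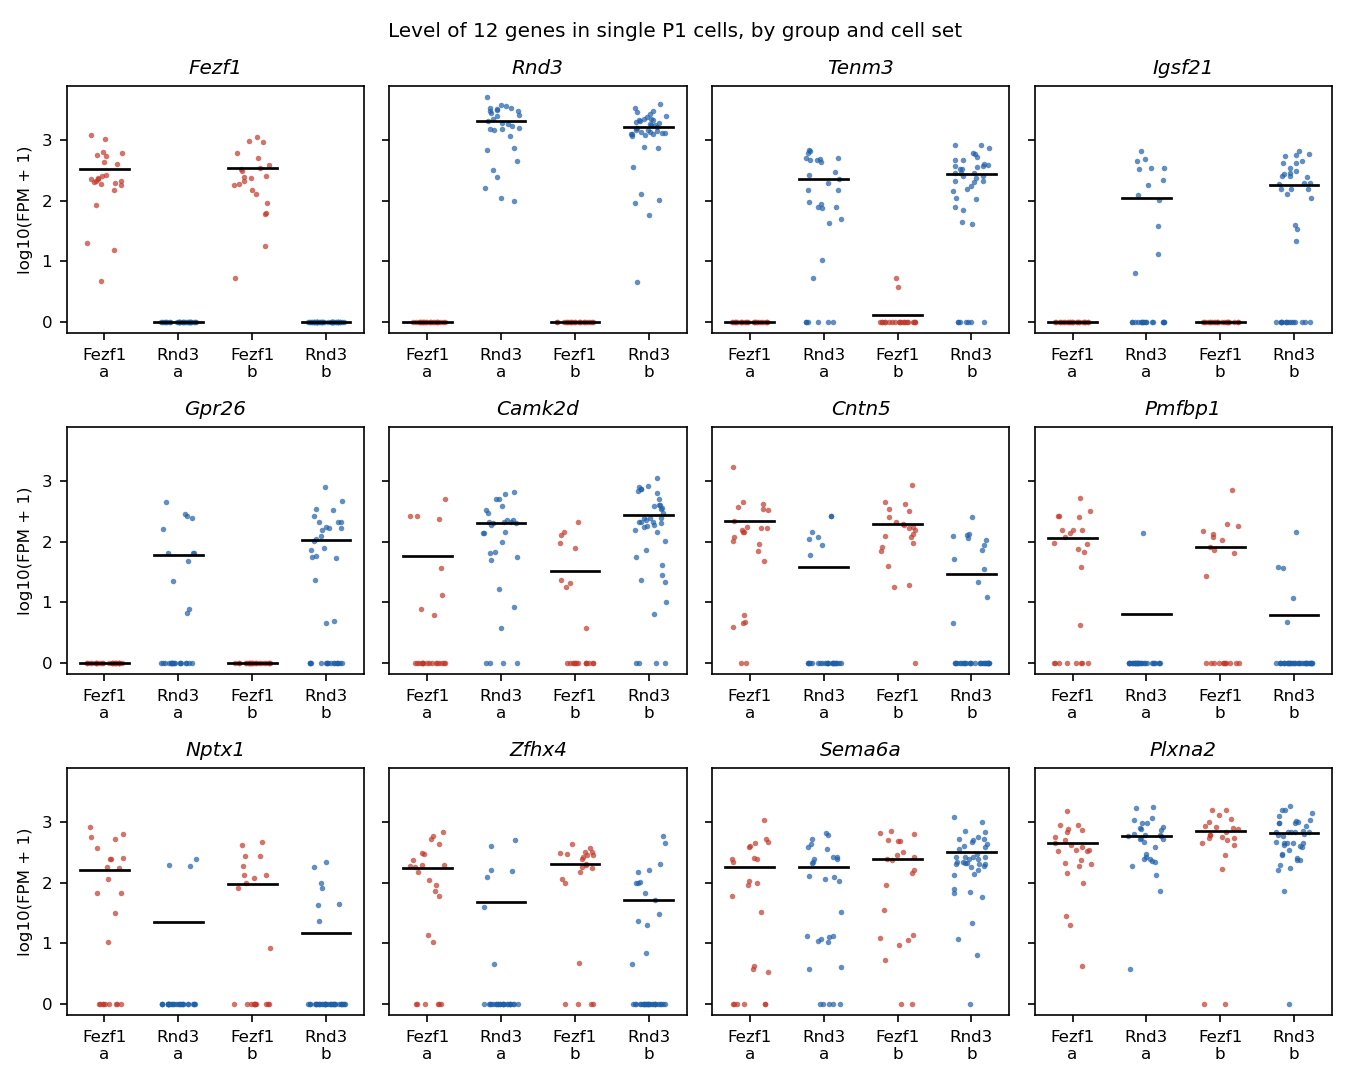
Level of 12 genes in single P1 cells, as log10 of FPM plus 1, for *Fezf1* cells (red) and *Rnd3* cells (blue) of sets a and b. Each point is a cell and each black line the level summed over the cells of the group. *Fezf1* and *Rnd3* chose the groups. *Tenm3*, *Igsf21* and *Gpr26* are at 0 in nearly all *Fezf1* cells, *Cntn5* overlaps between the groups, and *Sema6a* and *Plxna2* cover the same range in both.

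Among all the counted genes, those with at least 100 FPM over all P1 cells rest on the most fragments and were picked out after their values were seen. On the *Rnd3* side *Ldha*, lactate dehydrogenase A, had the highest level: 923 and 998 FPM in *Rnd3* cells against 343.1 and 328.3 FPM in *Fezf1* cells. It was present in 66 of 70 and 31 of 46 cells. *Trp53i11* was at 419.2 and 470.3 FPM against 148.6 and 215.9 FPM, *Rnf113a1* at 248.8 and 250.7 against 107.4 and 72.6, and *Pcsk1n*, a proprotein convertase inhibitor, at 224.6 and 198.1 against 62.45 and 85.8. On the *Fezf1* side *Slit2*, the ligand of Robo receptors, was at 90.7 and 245.1 FPM against 43.3 and 20.9 FPM and was present in 36 of 46 and 22 of 70 cells. *Abca5*, a lipid transporter, was at 135.4 and 219.7 FPM against 37.2 and 82.05 FPM. *Eml6* and *Las1l* were also counted, with log2 ratios of 1.00 to 1.36.

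Of the measured genes on 34 lists of retinal and neuronal gene groups, 28 were counted (9.36%, against 4.73% of all measured genes), a share from which nothing is read because the lists were drawn up with earlier results known. The median log2 ratio of all measured genes was 0.01. The 6 markers of starburst identity gave 0 counted genes of 5 measured. *Chat*, choline acetyltransferase, was at 129.7 and 109.8 FPM in *Fezf1* cells and 78.4 and 91.3 FPM in *Rnd3* cells. *Megf10*, which spaces starburst amacrine cells, was at 696.9 and 790.4 against 997 and 985 FPM, and *Sox2* at 75.9 and 80.4 against 142.3 and 90.98 FPM. *Isl1* was at 2918 and 3030 against 2968 and 3098 FPM.

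None of 9 measured semaphorins and none of 6 plexins and neuropilins met the rule, with median log2 ratios of 0.08 and -0.13. *Sema6a*, the transmembrane semaphorin, was at 181.6 and 247.01 FPM in *Fezf1* cells and 182.8 and 316.9 FPM in *Rnd3* cells, and 38 of 46 and 64 of 70 cells held it. *Plxna2*, its receptor, was at 459.9 and 710.7 against 601.7 and 660.9 FPM. *Plxna1* had log2 ratios of 0.24 and 1.51, *Plxna3* of -0.71 and 0.24, and *Plxna4* of 2.11 and 0.21. In the Eph, ephrin, netrin and Slit list 2 of 18 measured genes were counted, *Slit2* and *Ephb1*, both higher in *Fezf1* cells.

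Adhesion genes gave counted members on both sides. In the immunoglobulin and contactin list 2 of 17 measured genes were higher in *Fezf1* cells (*Cntn5* and *Kirrel3*) and 3 in *Rnd3* cells (*Nectin3*, *Nfasc* and *Igsf21*). Among teneurins, latrophilins, FLRT and UNC5 proteins *Tenm3* was the 1 counted gene of 9. Delta protocadherins gave *Pcdh17* on the *Fezf1* side and *Pcdh18* on the *Rnd3* side, of 6. None of 5 classical cadherins and none of 16 leucine-rich synaptic adhesion genes was counted.

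*Ppp1r12b*, a myosin phosphatase subunit, was counted as higher in *Rnd3* cells, with log2 ratios of -1.02 and -3.41. *Rhoa* was at 254.8 and 231.5 FPM in *Fezf1* cells and 111.7 and 249.6 FPM in *Rnd3* cells. *Rock1* had log2 ratios of -0.23 and 0.26, and *Rock2* of 0.96 and 0.67. *Rnd1* was held by 1 *Fezf1* cell and *Rnd2* by 1 *Rnd3* cell, and *Fezf2*, the paralogue of *Fezf1*, by no P1 cell.

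Of 29 measured transcription factors of amacrine cells and the retina, *Tcf4* and *Zfhx4* were counted on the *Fezf1* side and *Zfhx3* and *Tbr1* on the *Rnd3* side. *Tbr1* was present in 10 of 70 *Rnd3* cells and in 0 of 46 *Fezf1* cells. Of 11 corepressors, *Rcor2* was counted, present in 18 of 70 *Rnd3* cells and 1 of 46 *Fezf1* cells.

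On 5 further lists the counted genes were higher in *Fezf1* cells, where 2.26% of all measured genes were. They were *Gabra3* and *Gabrb2*, GABA-A receptor subunits, of 10 acetylcholine, GABA and glycine receptors measured, *Slc6a11*, a GABA transporter, of 4 GABA genes, *Scn2a1* and *Cacna2d3*, sodium and calcium channel subunits, of 27 channels, *Syn3*, a synapsin, of 23 vesicle genes, and *Pdyn*, prodynorphin, of 9 neuropeptides and calcium-binding proteins. None of 12 measured glutamate and purine receptors was counted. All 7 were held by a minority of the cells of each group: the widest, *Slc6a11*, was present in 19 of 46 *Fezf1* and 12 of 70 *Rnd3* cells. *Gad1*, the GABA-synthesizing enzyme, was at 1050 and 1130 FPM against 754.9 and 783.5 FPM, short of 2-fold, and *Gad2* was listed at 0. *Synpr*, synaptoporin, had log2 ratios of 2.62 and -0.52. *Glra4* and *P2rx2* were held by 1 cell each and *Cck* by none.

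*Wnt7a* and *Dkk3* on the *Fezf1* side and *Tgfb2* on the *Rnd3* side were counted of 19 signalling genes. *Th*, tyrosine hydroxylase, a marker of dopaminergic amacrine cells, was held by 19 of 46 *Fezf1* and 9 of 70 *Rnd3* cells. *Mcm5*, a replication helicase subunit, was the 1 counted of 3 measured cell cycle genes. *Dkk3* is also on the Muller glia list, whose 7 genes summed to a median of 153.3 FPM per *Fezf1* cell (0 to 1687) and 6.42 FPM per *Rnd3* cell (0 to 768.4). The part of other cells' RNA in these genes was not tested.

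The 14 cells with both markers and the 29 with neither did not enter the comparison. In the cells with both, *Fezf1* was at a median of 91.5 fragments (4 to 160) and *Rnd3* at 36 (1 to 62). None of these 14 cells held *Tenm3*, *Igsf21* or *Gpr26*, which by the same limit of 3 cells allows a share of up to 21.4%. By contrast 12 of 14 held *Cntn5*, 11 held *Zfhx4* and 13 held *Stmn4*, a tubulin-binding stathmin. Of the cells with neither marker, 24 of 29 held *Cntn5* and 22 held *Zfhx4*, while 3 held *Tenm3* and none held *Igsf21* or *Gpr26*. Counting over the 15 genes named on each side, 12 of the 14 cells with both markers and 27 of the 29 with neither held more genes of the *Fezf1* side than of the *Rnd3* side. Among the cells on which the genes were chosen, 46 of 46 *Fezf1* and 5 of 70 *Rnd3* cells did so, with 2 *Rnd3* cells equal. In these genes the cells with both markers and those with neither stood nearer to the *Fezf1* cells. Yet *Pmfbp1* was in 3 and *Nptx1* in 4 of the 14 cells with both. Why they held their combination of markers was not tested.

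**Figure D3:**
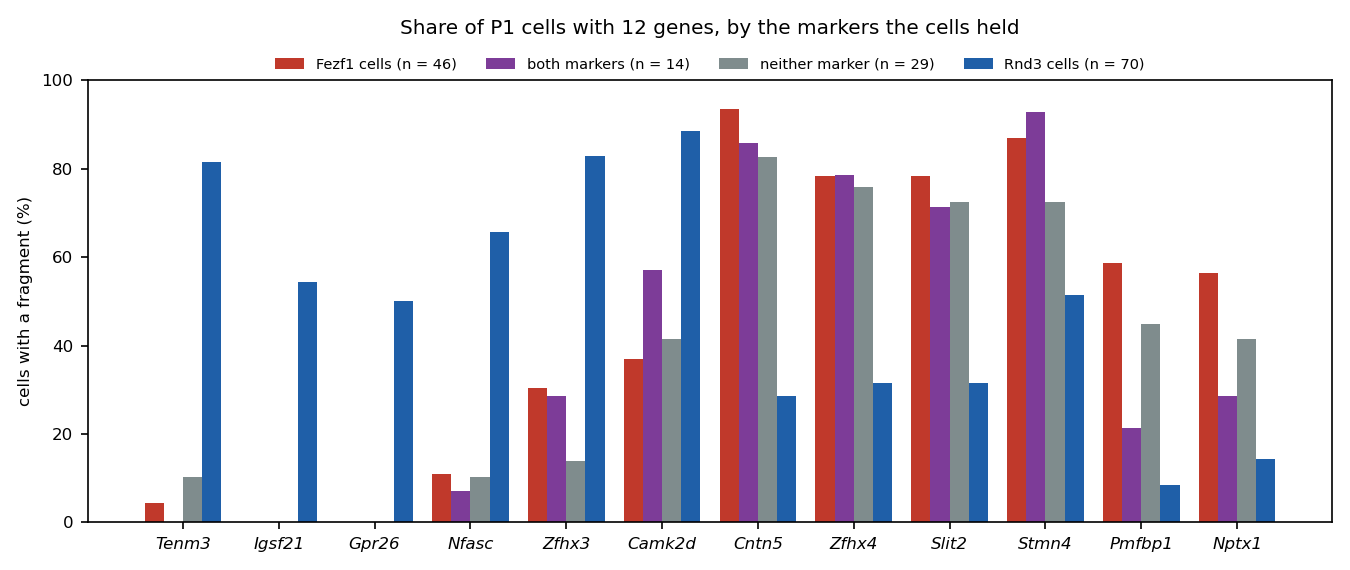
Share of P1 cells with at least 1 fragment (y axis, percent) of 12 genes, for 46 *Fezf1* cells (red), 14 cells with both markers (purple), 29 with neither (grey) and 70 *Rnd3* cells (blue). The purple and grey bars stand near the red ones for *Tenm3*, *Igsf21*, *Gpr26*, *Nfasc* and *Cntn5*, while the purple bars of *Pmfbp1* and *Nptx1* are low.

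Thinning moved these shares little. After each cell was thinned to 140000 fragments, which left out 2 *Fezf1* and 3 *Rnd3* cells, *Tenm3* was present in 82.1% of *Rnd3* and 2.27% of *Fezf1* cells (81.4% and 4.35% before). *Cntn5* was present in 88.6% of *Fezf1* and 29.9% of *Rnd3* cells (93.5% and 28.6% before). *Nfasc* stood at 9.09% against 65.7% (10.9% and 65.7% before).

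The same rule formed groups at P4 (47 *Fezf1* cells, and 57 and 56 *Rnd3* cells in sets a and b), P8 (84 and 66) and P11 (24 and 97), from other mice. Of the P1 genes higher in *Fezf1* cells, 38 met the rule at P4 in the same direction, 18.4% of those measured there, where 1.46% of all genes measured at both ages did. At P8 28 did (14.1%, against 1.17%), and at P11 19 (10.8%, against 1.63%). Of the P1 genes higher in *Rnd3* cells, 35 did so at P4 (15.9%, against 1.51%), 23 at P8 (11.1%, against 0.894%) and 41 at P11 (20.7%, against 4.87%). At P11 10 genes of the *Fezf1* side met it in the opposite direction, where 4.87% of all genes measured at both ages were higher in *Rnd3* cells. Of the *Rnd3* side 8 did, where 1.63% of all such genes were higher in *Fezf1* cells. Most counted genes were thus not met again, while a core was. Among the 15 genes named on each side, 11 on the *Fezf1* side and 7 on the *Rnd3* side met the rule again at P4. The numbers were 9 and 5 for P8, where 15 and 13 of them were measured. For P11 they were 6 on each side, where 12 and 13 were measured.

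The core met at all 4 ages held 10 genes on the *Fezf1* side: *Cntn5*, *RP23-24C14.1*, *Nptx1*, *Gfra3*, *Zfhx4*, *Pdyn*, *Stmn4*, *Trpc4*, *Klf3* and *Fam84a*. On the *Rnd3* side it held 13: *Tenm3*, *Igsf21*, *Gpr26*, *Zfhx3*, *Camk2d*, *Trhde*, *Nav2*, *Lama1*, *Lypd6*, *Zfp467*, *Rita1*, *Trp53i11* and 2810459M11Rik. Ratios in this paragraph are over both sets together. *Tenm3* was in 99.1% of *Rnd3* cells and 1 of 47 *Fezf1* cells at P4, and its log2 ratios, in age order, were -6.80, -7.41 and -6.21. *Gpr26* was at 0 in every *Fezf1* cell of P4, P8 and P11, and *Igsf21* in every one of P11. *Cntn5* kept log2 ratios of 2.32, 2.03 and 2.08. *Gfra3* had 4.10, 4.82 and 4.99 after 2.34 at P1, and by set it had 5.30 and 3.31 at P4. *Ldha* passed 2-fold in both sets at all later ages, without the share condition at P11. Of the 30 genes, *Tbc1d10b*, *Tcf4*, *Has2*, *Tgfb2*, *D17Wsu92e*, *Erich1*, *Insr*, *Mapkapk5*, *Fxr2* and *Tti2* met the rule at no later age. Of these, *Has2* passed 2-fold in both sets at P8 without the share condition. *Tcf4* was not among the measured genes at P11, and *Tgfb2* was not at P8 or P11. By set, *Tgfb2* had log2 ratios of -2.11 and -3.58 at P11.

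**Figure D4:**
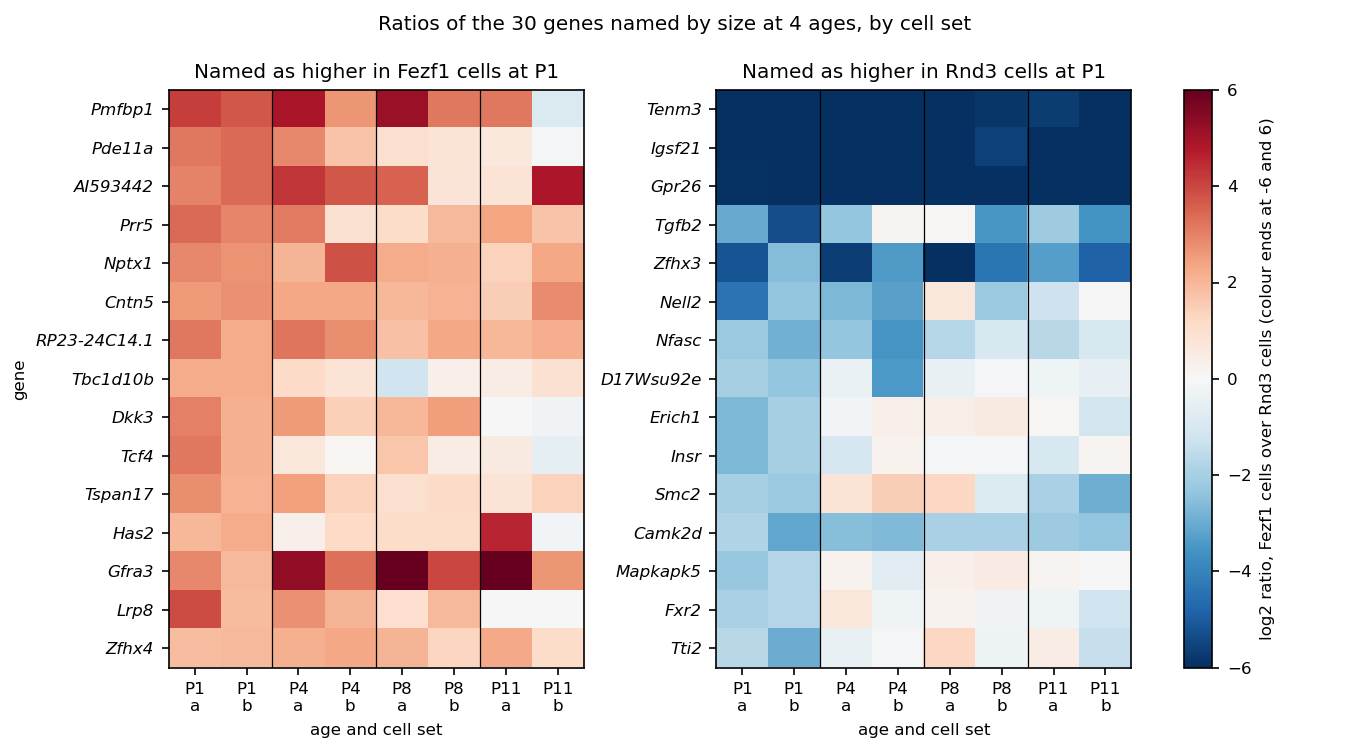
Log2 ratio of *Fezf1* over *Rnd3* cells for the 15 genes named on each side at P1 (rows), in sets a and b at P1, P4, P8 and P11 (columns). Red is higher in *Fezf1* cells and blue higher in *Rnd3* cells, and the colour ends at -6 and 6. *Tenm3*, *Igsf21*, *Gpr26*, *Zfhx3*, *Camk2d*, *Cntn5*, *Nptx1*, *Gfra3* and *Zfhx4* are among those that keep their colour in all columns, while *Insr*, *Mapkapk5* and *Tti2* change colour after P1.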

How the data were processed

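Single cells were sequenced by Smart-seq2 and aligned by the authors with HISAT2 2.1.0 to GRCm38.p6 (mm10), with SAMtools 1.3.1, Cufflinks 2.2.1 and Cuffnorm, per the labels. The annotation release is not given in the sources used here. The deposited gene table holds a signal, the fragments over the size factor of each cell, and the size factor is a deposited ratio. Their product gave fragments, of which 96.0% of the values above 0 at P1 lay within 0.01 of a whole number. Genes detected per cell were counted at a deposited FPKM above 0.1. The total per P1 cell ran from 87805 to 506331 fragments. All 855 well names matched the titles. Title calls of ON and OFF were not used.

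A gene was measured at 5 FPM or more over all P1 cells and a fragment in at least 10, *Fezf1* and *Rnd3* left out. The rule for named genes took the 15 largest ratios of each side by the weaker set (symbols of Gm with digits, ending in Rik or starting with mt- left out), list members that were counted, and a fixed list of starburst, guidance and cytoskeletal genes; those named by level or by all ages were added after values were seen. Members and lists were chosen with earlier results of these data known. Gene positions are from GENCODE vM21. Of 618 list genes 616 were found. Intervals are 95% exact Poisson or Clopper-Pearson. The ratio rule was run on simulated cells drawn independently with known changes, which checks its code and not its error rate in these data. Python 3.11.15, numpy 2.4.6, pandas 2.3.3 and scipy 1.17.1 were used. Alternatives covered the level used, the amount added, the filter, the fold, the cells kept and pooling of the sets. Transcript-level tables and P16 cells were not used here.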

Additional observations from a re-analysis of the deposited data

Results flagged for a closer look

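A few of the named genes counted as higher in *Fezf1* cells at P1 pointed the other way in both sets of a later age, a difference that was not tested. *Ephb1*, an Eph receptor, had a log2 ratio over both sets together of 1.16 at P1, -2.56 at P8 and -2.90 at P11, where 4 of 66 and 6 of 97 *Rnd3* cells and no *Fezf1* cell held it. *Gabra3* went from 3.19 at P1 to -2.51 at P11, with 1 of 24 *Fezf1* and 11 of 97 *Rnd3* cells. *Th* went from 2.87 at P1 to -2.27 at P11, where 2 of 97 *Rnd3* cells and no *Fezf1* cell held it. At those ages *Ephb1* and *Th* were below the level at which a gene was measured. At P4 *Ephb1* and *Th* were still counted as higher in *Fezf1* cells, with log2 ratios of 3.21 and 2.03, while *Gabra3* was not. Of all genes measured at P1 and P11, 4.87% were higher in *Rnd3* cells at P11.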

How the results depend on the processing

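The limits are the single pool of mice, so that no spread between animals is known, and counts set by few cells per gene. Across 18 alternatives the share of measured genes higher in *Fezf1* cells (2.26%) and in *Rnd3* cells (2.47%) was 0.83% and 0.583% at a level of at least 50 FPM (37 and 26 genes), 1.45% and 1.45% with 5 FPM added, 5.17% and 4.75% at 1.5-fold, 0.443% and 0.546% at 4-fold, and 6.51% and 6.51% with both sets pooled. The share higher in *Rnd3* cells was 1.19% by the mean of log2(FPM + 1), 5.08% in cells with *Xist* and no Y gene, and 4.62% without the top cell of each gene in each group and set, an alternative chosen after seeing the data. The cause of these moves was not tested, apart from limits and pooling, which change the counts by construction. Only 31.1% and 17.5% of the counted genes were also counted by the mean of log2(FPM + 1). Among cells with *Xist* and no Y gene 20.1% and 21.25% were, and among cells with a Y gene and no *Xist* 33.8% and 35%. In cells with *Xist* and no Y gene the log2 ratio of *Lrp8* was -0.10 and that of *Pcdh17* -2.42, the reverse of the value over all cells. The other named genes that were counted kept their direction under all alternatives run. Over both sets together *Tenm3* ranged from -8.02 to -5.62, *Igsf21* from -7.60 to -4.09 and *Gpr26* from -7.09 to -2.86. No paired analysis was possible because no 2 cells share a replicate number and the result comes from no test.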
